A study of Mus musculus with 4 samples.

Results

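Gkn1, Gkn2, Tff1, Muc5ac, Mucl3 and Capn9 are transcripts of the surface mucous cells that line the stomach and its pits. They were chosen by name with earlier results of these data known, and are described here in 4 libraries. All 6 had a row in a table of 2701 genes, and given that choice their having a row is no result. RNA came from the pylorus of C57BL/6 mice, from pooled cryosections 10 µm thick that were labelled pyloric epithelium. The 2 libraries called WT came from mice of genotype Lats1fl/fl;Lats2fl/fl, which carry floxed alleles of both kinase genes and no Cre. The 2 libraries called Lats1/2 KO, labelled Lats1/2iΔLgr5, came from mice of genotype Lats1fl/fl;Lats2fl/fl;Lgr5-CreER. In these a tamoxifen-activated Cre made under the stem cell gene Lgr5 can delete both kinases in Lgr5-positive cells, whose descendants inherit the loss. All mice were sampled 8 weeks after tamoxifen. CreER is present only in the Lats1/2 KO group, so its own effect and that of the deletion cannot be told apart, and how much of the sectioned epithelium had recombined was not measured.

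Surface mucous cells arise from progenitors in the gland, migrate upward and are constantly replaced. Their secretion forms the gastric mucus gel. MUC5AC is its gel-forming mucin, TFF1 is a small trefoil peptide that associates with mucin, and gastrokines 1 and 2 are small secreted proteins with a BRICHOS domain. Mucl3 encodes a mucin-like protein. Capn9 encodes a calpain protease that acts inside cells of the digestive tract, so the description "secreted products" does not cover this gene.

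Listed genes held between 13413629 and 17689207 counts per library. Levels below are normalized counts, which are counts divided by the size factors recovered from the authors' base means. Log2 fold changes are Lats1/2 KO over WT, with a standard error (SE) from edgeR unless they are given as the authors' own. Every listed gene has an adjusted p of at most 0.05 in the authors' DESeq2 test, so a row in the table already means a call, and "fell" and "rose" refer to that call. Lats1, which the Cre can delete, was at 2152 and 1974 in the WT libraries against 942.5 and 1129 in Lats1/2 KO. Lats2 was not among the listed genes. The log2 fold change of Lats1 was -0.99, inside the quartiles of the listed genes that fell (-1.03 to -0.58). A fall of so common a size does not by itself check the deletion. The labels do not say that the libraries of a group came from separate animals, so p-values measure only the spread between these libraries.

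All 6 genes fell in the Lats1/2 KO pylorus, to between 46.4% (Gkn2) and 60.5% (Mucl3) of the WT mean. Of about 13137 genes the authors tested, 11.7% fell and 20.6% were listed in either direction. Because the 6 were chosen with earlier results known, these shares are background and do not test the 6. For each of the 6 genes both WT libraries stood above both Lats1/2 KO libraries, which was also so for 57.1% of all listed genes. In bulk tissue fewer surface cells and less RNA per cell give the same fall and cannot be told apart.

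**Figure D1:**
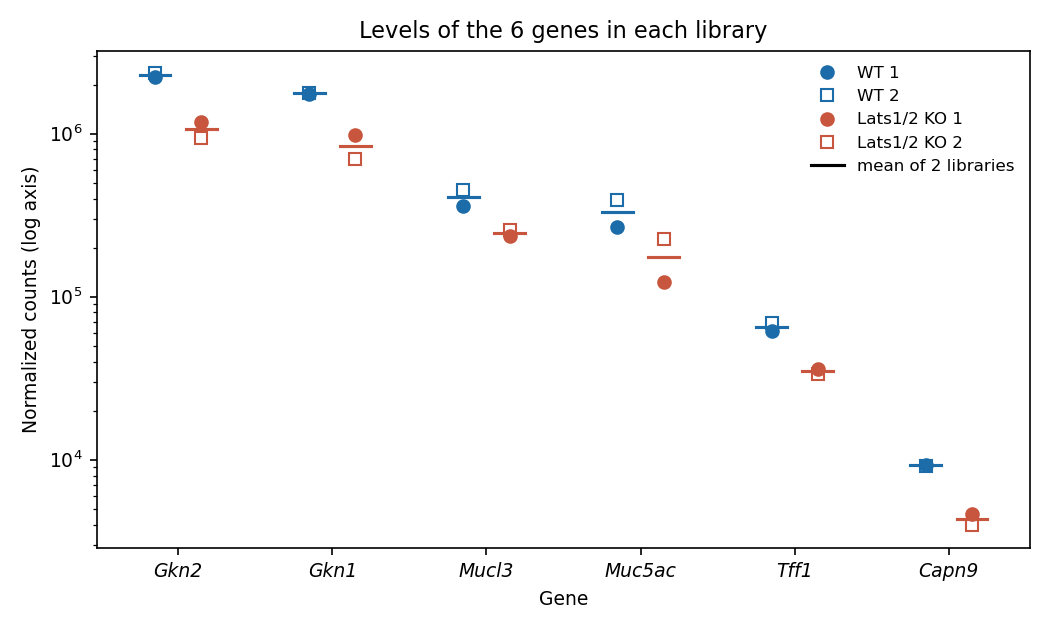
Normalized counts (log axis) of the 6 genes, with 1 point per library and a bar at the mean of the 2 libraries of a group. The WT points lie above the Lats1/2 KO points for each gene, and the gap is narrowest for Muc5ac, whose lower WT library was 1.18 times its higher Lats1/2 KO library.

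The gastrokine genes point away from each other on chromosome 6, with their starts 22.4 kb apart. Their levels moved together, and so did those of Gkn2 and of Capn9, which lies on chromosome 8. The bases before the gastrokine starts are shown because these 2 genes are neighbours. They are 200 bases of each RefSeq promoter window (GRCm38.p6), at chr6:87350943-87351142 on the minus strand for Gkn1 and chr6:87373157-87373356 on the plus strand for Gkn2. They are written 5′ to 3′ and end at the most upstream annotated start, and capitals mark matches to the 2 motifs found, each on either strand.
Gkn1: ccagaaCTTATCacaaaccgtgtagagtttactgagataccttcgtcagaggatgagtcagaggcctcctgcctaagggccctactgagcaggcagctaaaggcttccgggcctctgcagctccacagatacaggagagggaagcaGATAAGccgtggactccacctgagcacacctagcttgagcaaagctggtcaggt
Gkn2: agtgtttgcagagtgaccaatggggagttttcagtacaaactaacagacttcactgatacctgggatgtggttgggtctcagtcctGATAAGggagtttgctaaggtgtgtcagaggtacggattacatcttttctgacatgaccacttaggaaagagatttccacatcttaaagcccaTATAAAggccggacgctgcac
The letters GATAAG, a core bound by GATA factors, lie at position -81 of Gkn1 and at position -122 of Gkn2, counted from the RefSeq start, and on the reverse strand at position -221 of Gkn1. The letters TATAAA, those of a TATA box, lie at position -29 of Gkn2 and nowhere in the Gkn1 window. Of 32851 RefSeq windows of the same length, 7.44% hold the GATA letters and 13.6% the TATA box letters on either strand. The TEAD motif GGAATG is present in 14.7% of windows, the MYC motif CACGTG in 7.15% and the forkhead motif TGTTTAC in 3.65%, and none of these 3 is in a gastrokine window. The windows of Capn9 and Mucl3 hold none of the 5 motifs, and no window was available for Tff1 and Muc5ac. The motifs were chosen with these letters in view, and a match describes letters, not binding.

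Gkn2 (ENSMUSG00000030049, chromosome 6, 87373357 to 87379497, plus strand, GRCm38) was the most abundant listed transcript. Its level was 2237946 in WT 1, 2345539 in WT 2, 1185948 in Lats1/2 KO 1 and 939255 in Lats1/2 KO 2. The WT libraries were close together and Lats1/2 KO 2 was the lowest. From WT to Lats1/2 KO the mean went from 2291743 ± 76079 to 1062601 ± 174438 normalized counts (SD, n = 2). As a log2 fold change this was -1.11 ± 0.20 (SE, edgeR adjusted p = 0.0118). The authors' DESeq2 test gave -1.07 ± 0.18 (SE, adjusted p = 1.39e-07).

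Gkn1 (ENSMUSG00000030050, chromosome 6, 87345650 to 87350942, minus strand, GRCm38) stood at 1758294 and 1773721 normalized counts in the WT libraries, in order of their number. The Lats1/2 KO libraries held 984462 and 698369. As with Gkn2, the WT libraries were nearly equal and Lats1/2 KO 2 was lower than Lats1/2 KO 1. Means were 1766008 ± 10908 in WT and 841415 ± 202298 in Lats1/2 KO (SD, n = 2). On the log2 scale the difference was -1.07 ± 0.23 (SE, edgeR adjusted p = 0.0132). It was -1.02 ± 0.21 in the authors' DESeq2 test (SE, adjusted p = 3.07e-05). Gkn3, the next family member along the chromosome, was not among the listed genes and was not analysed here.

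Tff1 (ENSMUSG00000024032, chromosome 17, 31161396 to 31165053, minus strand, GRCm38) measured 61904 and 69273 normalized counts in WT, and 36238 and 33592 in Lats1/2 KO. Libraries of a group were close and the groups were well apart. Its means of 65588 ± 5211 and 34915 ± 1871 (SD, n = 2) differ by -0.91 ± 0.15 on the log2 scale (SE, edgeR adjusted p = 0.0117). In the authors' DESeq2 test the log2 fold change was -0.89 ± 0.15 (SE, adjusted p = 1.90e-07). The antisense gene Gm15318 overlaps Tff1 and was at 3776 ± 316.7 in WT against 2497 ± 421.9 in Lats1/2 KO. Whether counting used the strand is not stated, so reads in the overlap cannot be assigned to either gene. Tff2 and Tff3, the neighbouring trefoil genes, were not among the listed genes.

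Muc5ac (ENSMUSG00000037974, chromosome 7, 141788972 to 141819231, plus strand, GRCm38) varied most between libraries of a group. WT 1 held 267962 normalized counts and WT 2 held 390255, while Lats1/2 KO 1 held 122711 and Lats1/2 KO 2 held 227413. Library 2 was the higher one in both groups, by 1.46 times in WT and 1.85 times in Lats1/2 KO, and the groups came close without overlapping. The means were 329109 ± 86474 and 175062 ± 74035 (SD, n = 2), a difference of -0.91 ± 0.35 in log2 units (SE, edgeR adjusted p = 0.0429). From the authors' DESeq2 test it was -0.81 ± 0.3 (SE, adjusted p = 0.0380). The edgeR value was -0.53 without Lats1/2 KO replicate 1, -0.61 without WT replicate 2 and -1.42 without Lats1/2 KO replicate 2. The gel-forming mucin genes Muc5b, Muc2 and Muc6 lie in the same cluster and were not among the listed genes.

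Mucl3 (ENSMUSG00000073408, chromosome 17, 35635752 to 35643695, minus strand, GRCm38) fell least of the 6. Its WT libraries stood at 361484 and 453948 normalized counts and its Lats1/2 KO libraries at 235394 and 257744. The Lats1/2 KO libraries were close to each other, and WT 2 was the highest. Means of 407716 ± 65382 and 246569 ± 15803 (SD, n = 2) gave -0.73 ± 0.19 on the log2 scale (SE, edgeR adjusted p = 0.0172). DESeq2 as run by the authors gave -0.7 ± 0.18 (SE, adjusted p = 0.00128). Sfta2, on the other strand, overlaps Mucl3 and was not among the listed genes.

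Capn9 (ENSMUSG00000031981, chromosome 8, 124576111 to 124618731, plus strand, GRCm38) was the scarcest of the 6 and its groups were the farthest apart relative to their spread. WT 1 held 9311 normalized counts, WT 2 9141, Lats1/2 KO 1 4637 and Lats1/2 KO 2 3963, so the lower WT library was 1.97 times the higher Lats1/2 KO library. Means of 9226 ± 120.0 and 4299.6 ± 476.6 (SD, n = 2) gave -1.10 ± 0.14 as a log2 fold change (SE, edgeR adjusted p = 0.0117). That of the authors' DESeq2 test was -1.07 ± 0.16 (SE, adjusted p = 2.93e-09).

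In edgeR's quasi-likelihood test on the authors' factors, adjusted over all listed genes, the adjusted p of the 6 genes lay between 0.0117 (Capn9) and 0.0429 (Muc5ac). The test called 57.1% of listed genes lower and nearly all listed genes in 1 direction or the other, so a pass in it says little about the 6. Without WT replicate 1 all 6 passed, where 52.4% of listed genes were called lower. Without WT replicate 2, where that share was 44.9%, only Tff1 and Capn9 passed, and the edgeR adjusted p was 0.0603 for Gkn1, 0.0649 for Gkn2, 0.126 for Mucl3 and 0.141 for Muc5ac. Without Lats1/2 KO replicate 1, with 32.4% called lower, Mucl3 and Muc5ac did not pass (edgeR adjusted p of 0.0669 and 0.148). Without Lats1/2 KO replicate 2 none of the 6 passed (edgeR adjusted p from 0.0702 to 0.0749), in a fit that called 0.037% lower. With a block for the replicate number, where 53.7% were called lower, all 6 passed, and with the numbers crossed, where 56.2% were, Muc5ac did not (edgeR adjusted p = 0.0742).

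The size of the fall depended on the scaling. The listed genes as a whole were lower on the authors' scale. Their summed level was 18787473 ± 1021443 in WT and 11631492 ± 725948 in Lats1/2 KO (SD, n = 2), and the 6 genes made up 35.0% of that difference. TMM scaling on the listed genes moved the log2 fold changes of all listed genes up by 0.36, and scaling by the total of listed counts moved them up by 0.69. With TMM, where 18.3% of listed genes were called lower, Gkn2 was at -0.75 and Capn9 at -0.74. Mucl3 at -0.36 and Muc5ac at -0.54 did not pass there (edgeR adjusted p of 0.111 and 0.197). DESeq2 size factors from the listed genes also left 4 of the 6 called, with 16% called lower. With the total of listed counts, where 6.41% were called lower, Capn9 at -0.41 still passed, while Gkn2 stood at -0.42 (edgeR adjusted p = 0.105) and Mucl3 at -0.02 (edgeR adjusted p = 0.936). With the 6 genes taken out of that total 9% were called lower, and Capn9 was again the 1 gene of the 6 that passed.

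**Figure D2:**
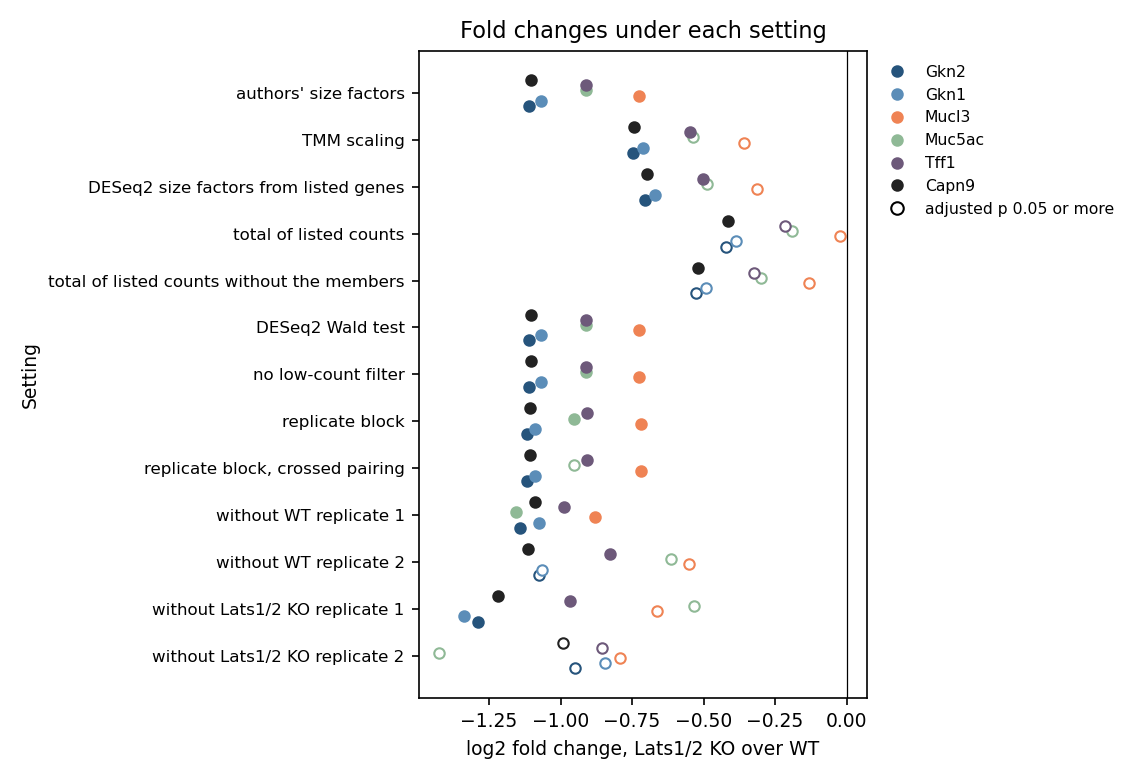
Log2 fold changes (Lats1/2 KO over WT) of the 6 genes under the authors' size factors and 12 alternatives, with open points where the adjusted p was 0.05 or more. All 72 alternative values lie below 0, and the value nearest 0, that of Mucl3, comes from scaling by the total of listed counts. The 6 were chosen with earlier results known, so their side of 0 does not test them.

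A share of each library's listed counts needs no scaling factor, but its total holds only genes that the authors called different. On the authors' scale that total was 1.62-fold lower in Lats1/2 KO. The 6 genes together held 26.0% in WT 1, 25.8% in WT 2, 21.2% in Lats1/2 KO 1 and 19.4% in Lats1/2 KO 2. Their 95% Wilson intervals reach at most 0.0227 percentage points to either side and cover counting error only. Both Lats1/2 KO libraries were below both WT libraries, with means of 25.9 ± 0.111% and 20.3 ± 1.22% (SD, n = 2; exact two-sided permutation p = 0.333, the smallest that 2 against 2 libraries can give).

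Gkn2 alone held 12.4% and 12.0% in WT against 9.77% and 8.45% in Lats1/2 KO. For Gkn1 the shares were 9.73% and 9.09% against 8.11% and 6.28%. These 2 genes made up most of the difference. Without them, the other 4 held 3.88% and 4.73% in WT and 3.29% and 4.70% in Lats1/2 KO, and the groups overlapped (exact two-sided permutation p = 0.667).

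Within those 4, Tff1 and Capn9 kept their groups apart. For how many of all listed genes the shares did so was not counted. The share of Tff1 was 0.343% and 0.355% in WT against 0.298% and 0.302% in Lats1/2 KO, and that of Capn9 0.0515% and 0.0469% against 0.0382% and 0.0356%. Mucl3 held 2.00% and 2.33% in WT and 1.94% and 2.32% in Lats1/2 KO. Muc5ac held 1.48% and 2.00% in WT and 1.01% and 2.05% in Lats1/2 KO. For both mucin genes the groups overlapped, with Lats1/2 KO 2 close to WT 2.

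**Figure D3:**
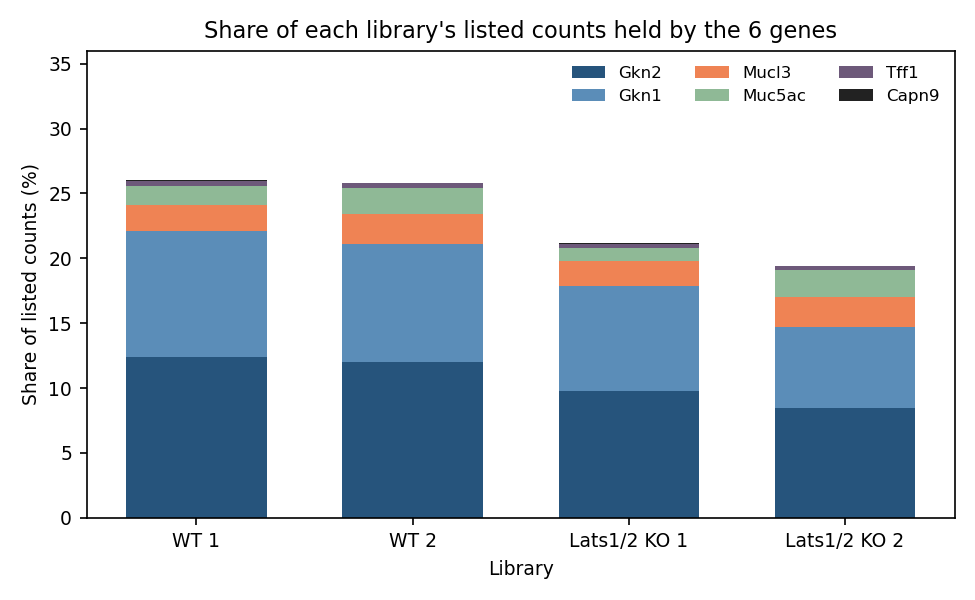
Share of each library's listed counts (percent) held by the 6 genes, stacked by gene. The stacks reach 26.0% and 25.8% in WT and 21.2% and 19.4% in Lats1/2 KO, and the Gkn2 and Gkn1 segments make up most of each stack.

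Levels were compared between genes per kilobase of merged exons. The WT means were 2908303 normalized counts per kilobase for Gkn2 and 1412806 for Gkn1, which ranked 1 and 2 among listed genes in both groups. Mucl3 followed at 156153, Tff1 at 93298, Muc5ac at 30609 and Capn9 at 3822. The order was the same in Lats1/2 KO, and no neighbours in it overlapped between libraries of a group. The other 7 of the 10 highest levels per kilobase among named listed genes were those of mt-Co1, mt-Cytb, Psca, Krt8, S100a6, Gsta1 and Tmsb4x, from 398056 to 110232 in WT.

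Ratios of counts within a library also need no scaling. Gkn1 to Gkn2 was 0.786 and 0.756 in WT and 0.830 and 0.744 in Lats1/2 KO, so the WT values lay within the Lats1/2 KO range. Gkn2 to Capn9 was 240.4 and 256.6 in WT against 255.8 and 237.0 in Lats1/2 KO, and these groups overlapped too. Of 15 pairs, 4 had groups that did not overlap (Gkn2 to Tff1, Gkn2 to Mucl3, Tff1 to Capn9 and Mucl3 to Capn9), a property that 48.9% of pairs of lower listed genes shared at a base mean of 1000 and over. The widest mean difference was -0.40 on the log2 scale for Gkn2 to Mucl3, from 6.19 and 5.17 in WT to 5.04 and 3.64 in Lats1/2 KO. Muc5ac moved apart from the gastrokines within groups. Gkn1 to Muc5ac was 8.02 in Lats1/2 KO 1 and 3.07 in Lats1/2 KO 2, on either side of the WT values of 6.56 and 4.55.

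**Figure D4:**
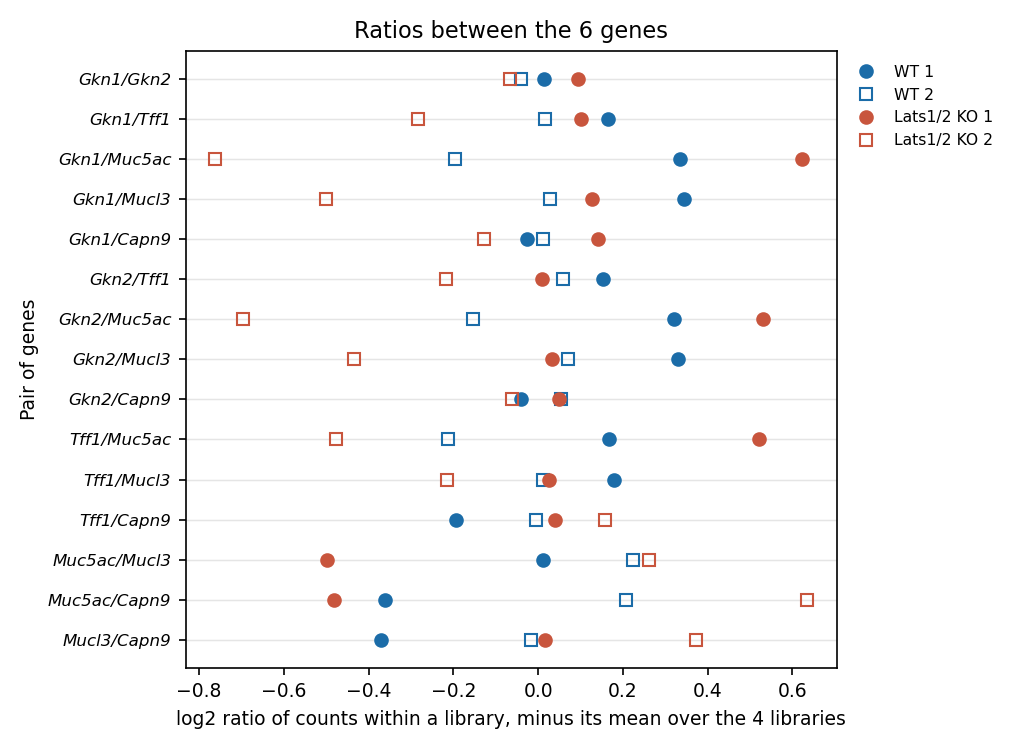
Log2 ratio of counts for each pair of the 6 genes in each library, minus the pair's mean over the 4 libraries. The pairs of Muc5ac with Gkn1 and Gkn2 are among the widest, with Lats1/2 KO 1 and Lats1/2 KO 2 at opposite ends, and Gkn2 with Capn9 is the narrowest.

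The median log2 fold change of the 6 genes was -0.99, against -0.50 over all listed genes and -0.73 over those that fell. Abundant listed genes mostly fell. Of 227 with a base mean of at least 10000, 94.3% fell, and the median over the 227 was -0.68. All of the 6 except Capn9 belong to these abundant genes.

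**Figure D5:**
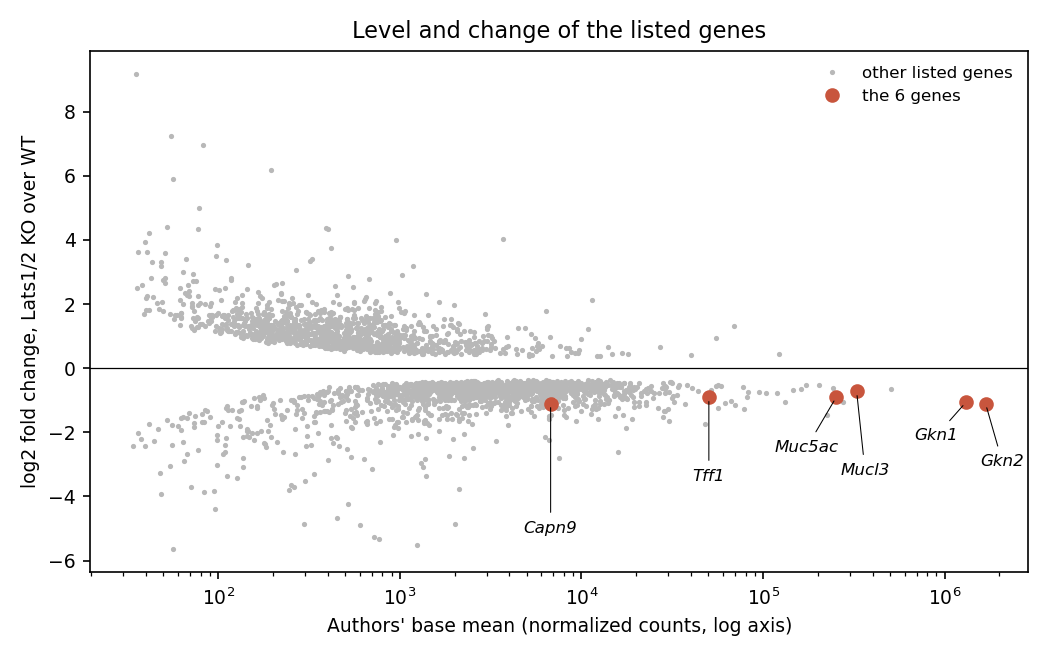
Log2 fold change (Lats1/2 KO over WT) against the authors' base mean (log axis) for all 2701 listed genes, with the 6 genes marked. Points above a base mean of 10000 lie mostly below 0, and Gkn1 and Gkn2 lie farthest to the right.

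Other genes of surface mucous cells were described from a list of 12 besides the 6. Of these 7 were listed, all of which fell, with a median log2 fold change of -0.78. Of all tested genes 20.6% were listed and 11.7% fell, and these shares are the background for the lists below too. This list and those below were chosen with earlier results known. Psca, which encodes a membrane-anchored protein of pit cells, went from 176990.1 ± 21008 to 85414 ± 16026 normalized counts (SD, n = 2). The annexin gene Anxa10 fell 1.71-fold, the membrane protein gene Tmem45b 1.87-fold, the aspartic protease gene Ctse 1.61-fold and the junction protein gene Vsig1 1.63-fold. Foxq1, a forkhead factor needed for Muc5ac production in mouse surface cells, went from 4939 ± 5.30 to 3204 ± 428.7 (SD, n = 2). The phosphatase gene Ptprr fell 3.21-fold with a wide spread, from 1480.2 ± 729.8 to 461.2 ± 149.3. With TMM, where 18.3% of listed genes were called lower, 4 of the 7 passed. Foxq1, Vsig1 and Ctse did not (edgeR adjusted p of 0.125, 0.139 and 0.0910). With the total of listed counts 5 of 7 stayed below 0, and Foxq1 and Ctse turned to 0.06 and 0.01.

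Among 22 gastrokine, trefoil and mucin genes, 6 were listed, of which 5 are described above and were chosen by name as listed. The 1 listed beyond them was Muc4, a membrane mucin gene, at 15969.5 ± 6572 in WT and 7069 ± 2792 in Lats1/2 KO (SD, n = 2), which did not pass with TMM (edgeR adjusted p = 0.0935). Of all tested genes 20.6% were listed. Of 9 genes with a BRICHOS domain, Itm2b was listed besides the gastrokines and fell 1.61-fold, though it was at 0.01 on the log2 scale with the total of listed counts. Of 16 calpain family genes 6 were listed, 5 lower and 1 higher. Capn5, Capn13 and Capn1 fell 2.13-fold, 1.72-fold and 1.42-fold, and Cast, which encodes the calpain inhibitor, fell 1.60-fold. Capn6, whose product lacks protease activity, rose from 162.3 ± 84.5 to 940.5 ± 444.7 (SD, n = 2). With the total of listed counts Cast and Capn1 turned to 0.02 and 0.19. Capn8, which encodes the partner of CAPN9 in a gastric calpain complex, was not among the listed genes.

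Genes for folding, packing and secretion of mucus had 9 of 27 listed, and all 9 fell, with a median log2 fold change of -0.69. Rab27a, a GTPase gene of granule docking, averaged 20676 ± 762.8 normalized counts in WT and 11472 ± 41.7 in Lats1/2 KO (SD, n = 2). Its relative Rab27b fell 1.73-fold. Clca1, which encodes a secreted protein of mucous cells, was at 369214 ± 7657 in WT and 179000.0 ± 45651 in Lats1/2 KO. Of 26 enzymes of mucin O-glycan synthesis 6 were listed, 5 lower and 1 higher, and that share of 23.1% is near the 20.6% of all tested genes. The fucosyltransferase gene Fut2 fell 1.93-fold and the branching enzyme gene Gcnt3 1.53-fold, while the sulfotransferase gene Chst4 rose 2.47-fold. With TMM 4 of the 9 and 2 of the 6 passed in edgeR. With the total of listed counts 5 of 9 secretion genes and 2 of 6 glycan enzyme genes lay below 0, and Gcnt3 was at 0.07.

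Transcription factor genes of surface and antral epithelium had 11 of 28 listed, 9 lower and 2 higher. Elf3, an epithelial ETS factor, fell 1.63-fold, Gata4, a GATA factor of foregut epithelium, 1.71-fold and the forkhead gene Foxa3 1.67-fold. Klf5, a zinc finger factor gene of proliferating epithelium, rose 1.57-fold and was picked out once its value was known. With TMM 4 of the 11 passed in edgeR, and with the total of listed counts 6 lay below 0.

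Of 21 general epithelial genes 11 were listed, 10 lower and 1 higher, and their median log2 fold change was -0.60. With TMM 4 of the 11 passed in edgeR, and with the total of listed counts 3 lay below 0 and 8 above it. With the 6 surface mucous genes taken out of that total, 6 of these epithelial genes lay below 0 and 5 above it. Their summed level was 749823 and 911924 normalized counts in WT and 519524 and 560039 in Lats1/2 KO. Krt20, a keratin gene of surface cells, fell 1.87-fold and the tetraspanin gene Tspan8 1.60-fold. The part of epithelial content in the fall of the 6 was not tested.

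Markers of the other gland lineages were mostly without a row. Of 8 gland mucous and neck cell markers Dmbt1 was listed, at 32273 and 43769 normalized counts in WT against 88879 and 56503 in Lats1/2 KO. Muc6 and Tff2, which define that lineage, were not analysed here. Of 7 chief cell markers Rab3d was listed and fell 1.33-fold, but was at 0.28 on the log2 scale with the total of listed counts. Of 13 parietal cell markers 3 were lower and 1 higher, with log2 fold changes of -1.71 for Kcnj15, -0.58 for Car2 and -0.50 for Slc9a4. The 1 higher was Esrrg at 3.59 ± 1.23 (SE), picked out once its value was known. It had few counts, at 10.1 and 5.51 normalized counts in WT against 16.3 and 171.9 in Lats1/2 KO, and its rise rested mostly on Lats1/2 KO 2. Car2 and Slc9a4 did not pass with TMM (edgeR adjusted p of 0.189 and 0.329) and turned to 0.11 and 0.19 with the total of listed counts. The enteroendocrine hormone genes Ghrl and Sst, 2 of 15, were higher, at 37.9 ± 5.27 against 767.2 ± 736.7 and 30.0 ± 12.1 against 204.2 ± 187.6 (WT against Lats1/2 KO, SD, n = 2).

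A list of 14 genes joined stem cell markers with genes of dividing cells. Of these 9 were listed, of which 8 rose and 1 fell, with a median log2 fold change of 1.25. Most of the 8 that rose are genes of cell division and growth that do not mark stem cells. Summed over the 9 listed, their level was 7711 and 9589 normalized counts in WT and 19742 and 21755 in Lats1/2 KO. The replication helicase genes Mcm2 and Mcm3 rose 3.50-fold and 3.72-fold and the cyclin gene Ccnd1 1.81-fold. The 1 that fell was Lgr5, the gene that drives the Cre, at 79.2 ± 29.9 in WT and 25.6 ± 0.312 in Lats1/2 KO (SD, n = 2), picked out once its value was known (edgeR adjusted p = 0.0631 with TMM). The part of progenitor content or of cell division in the result was not tested. Targets of YAP and TAZ, the coactivators that LATS kinases restrain, had 11 of 24 listed. Of these 7 rose and 4 fell, and Ajuba, Ccn2 and Ptpn14 rose 6.31-fold, 5.07-fold and 3.14-fold. Areg, 1 of the 4 and picked out once its value was known, fell 2.63-fold. Summed over the 11 listed, the level was 20924 and 24368 normalized counts in WT and 15565 and 15473 in Lats1/2 KO. That sum mostly follows Nt5e, Areg and Dock5, which fell and had the highest WT means (8981, 5923 and 4814). Ajuba, Ccn2 and Ptpn14 had WT means of 61.6, 72.8 and 154.7. The median log2 fold change of the 11 was 1.02.

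Markers of tissue beside the glandular stomach were few. Of 19 intestinal and goblet cell markers 3 were lower and 1 higher. Clca1, described above with the secretion genes, is 1 of the 3 and is known from goblet cells too. Fabp2, an enterocyte gene, fell 4.77-fold and Vil1, a gene of the brush border, 2.37-fold. Of 15 squamous forestomach markers 2 were higher and 1 lower, with Sprr2a1 3.15-fold lower and Dmkn and Krt4 10.2-fold and 3.16-fold higher. Of 14 pancreatic markers Cela1 rose 1.97-fold and Cela2a was lower at few counts, and of 15 smooth muscle and fibroblast markers Mmp2 fell 2.05-fold, Col1a2 1.72-fold and Col3a1 1.68-fold. With TMM none of these 3 passed (edgeR adjusted p from 0.0752 to 0.0847). None of 17 immune and blood markers was listed. The listed squamous, pancreatic and mesenchymal markers summed to between 1577 and 13681 normalized counts per list and library, and the intestinal and goblet cell markers, Clca1 included, to between 156773 and 417143, against 2160334 to 5041878 for the 6 genes. Markers without a row add nothing to these sums, so the sums do not measure how much of such tissue was present. The part of such tissue in the result was not tested.

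Listed neighbours of the 6 on the chromosome moved in both directions. Within 250 kb of Tff1, the sugar phosphate transporter gene Slc37a1 went from 5677 ± 952.5 to 3048 ± 397.1 normalized counts (SD, n = 2). Around Mucl3, Ier3 fell 2.05-fold, and Tubb5, Tcf19 and Gtf2h4 rose 2.38-fold, 1.82-fold and 1.64-fold. Muc5ac and Capn9 had no listed neighbour within that distance.

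The genes nearest in profile to the 6 were found among 1424 named listed genes with a base mean of at least 1000. Likeness was the root mean square distance, over the 4 libraries, between a gene's log2 levels centred on their mean and the mean centred profile of the 6. The 8 nearest were Cpeb2, Aldh3a2, Rbm47, Jag1, Higd1a, Slc9a2, Spryd7 and Pttg1ip, at 0.0203 to 0.0485 log2 units. Cpeb2, which encodes an mRNA-binding protein, stood at a normalized count of 1998 in WT 1, 2236 in WT 2, 1060.2 in Lats1/2 KO 1 and 1027 in Lats1/2 KO 2. The RNA-binding protein gene Rbm47 fell 2.03-fold and the sodium-proton exchanger gene Slc9a2 1.91-fold. Of the 6 themselves Tff1 lay nearest to their mean profile at 0.0481 and Muc5ac farthest at 0.348.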

How the data were processed

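RNA-seq of mouse pylorus gave 4 libraries, 2 per genotype. The submitters' processing notes name TopHat2 2.1.1, HTSeq, DESeq2 and GRCm38. Aligner, counter and strand settings are not stated. The authors deposited whole-number counts per gene, without normalization. Beside them, per the file headers, stand the authors' base mean (signal: average of normalized counts), log2 fold change and its error, test statistic (score), p-value and adjusted p-value. The number of genes tested, 13137, was inferred from the deposited p-values.

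Size factors (0.792, 0.907, 1.10 and 1.28 for WT 1, WT 2, Lats1/2 KO 1 and 2) were recovered from base means and counts. They fed edgeR 4.0.16 (quasi-likelihood, filterByExpr, Benjamini-Hochberg over all listed genes), whose SE is the log2 fold change over the root of F. Other scalings, DESeq2 1.42.0, no filter, a block, and leaving out each library were alternatives, and the code was tested on simulated data. GENCODE M21 gave symbols (2698 of 2701 IDs), strands and exon lengths, and 1 was added to deposited starts. The 6 genes and 19 gene lists were chosen with earlier results of these data known. Named are the 6, Lats1, listed genes of the surface mucous, mucin family, BRICHOS and calpain lists, up to 3 of each other list by the authors' adjusted p, up to 3 listed neighbours a side, the 10 highest levels per kilobase and the 8 nearest profiles. Unnamed models and pseudogenes were passed over, except Gm15318, which overlaps Tff1. Some values are not reported here.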

Additional observations from a re-analysis of the deposited data

How the results depend on the processing

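All 72 log2 fold changes of the 6 genes under 12 alternatives stayed below 0, and 27 of them lost the edgeR call. Of the 6, 1 was called with the total of listed counts as the scale, with or without the 6 in it, and from 0 to 6 with 1 library left out, where a lone library was assumed to vary like the other group. The 6 were chosen with earlier results known and several alternatives keep the authors' factors, so values below 0 do not test the 6. How many other listed genes stayed below 0 throughout was not counted. Listed genes called numbered 2698, and 1651 with TMM, 1589 with DESeq2 size factors, 1331 with the total and 1401 with the total less the 6. Those called lower went from 1541 to 494, 432, 173 and 243, while those called higher stayed at 1157 or 1158. With 1 library left out 5 to 2454 were called, the fewest without Lats1/2 KO replicate 2, and 1503 without Lats1/2 KO replicate 1. The median of the surface mucous list, -0.91, was -0.54, -0.49, -0.21 and -0.31 under the same 4 scalings and -1.06 to -0.73 with 1 library left out. These scalings rest on genes selected for a difference. The difference in share of the 6, -5.63 percentage points, was -6.49 to -4.77 with 1 library left out, -9.52 against listed counts without the 6, -10.3 with other genes of base mean 10000 and over left out, and -0.310 without Gkn1 and Gkn2.

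Same-numbered libraries share only a number, and their deviations correlated at -0.16 across genes. A replicate block called 2535 genes and all 6, with a surface mucous median of -0.91. The crossed pairing, chosen after seeing the data, called 2660 genes and 5 of the 6. With at least 5070 counts for each of the 6 in each library, the number of libraries limits precision more than depth.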

Other observations

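Abundant listed genes that rose were few, 13 of the 227 with a base mean of at least 10000, and those named here were chosen once their values were known. The elongation factor genes Eef1a1 and Eef2 rose 1.35-fold and 1.32-fold, and Rps3a1, Rpl3, Rpl32, Rps7 and Rpl14, which encode ribosomal proteins, rose by 0.37 to 0.48 on the log2 scale. Reads of ribosomal protein genes can be shared with pseudogene copies, and these values are uncertain for that reason. The nucleolar protein gene Ncl rose 2.32-fold and Ptma, a small nuclear protein gene, 1.57-fold. Clu, which encodes a secreted chaperone, was at 39531 ± 8404 in WT and 98879 ± 23693 in Lats1/2 KO (SD, n = 2), and the desaturase gene Scd2 rose 4.41-fold. Dmbt1, also among them, is described above.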
